A study of Mus musculus with 8 samples.

Results

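The cytosolic ribosomal protein genes are the genes that encode the protein part of the ribosomes of the cytoplasm. They were taken from the count table as the protein-coding genes named Rpl or Rps followed by a number, with Rpsa and the stalk genes Rplp0, Rplp1 and Rplp2, and without the kinase genes whose names start with Rps6k. This gave 83 of the 55416 genes in the table, of which 46 belong to the large subunit and 31 to the small subunit, and 6 are paralogs of such genes. Polyadenylated RNA of cerebral cortex was sequenced from mice heterozygous for the L192P substitution in Ago2 (L192P, 4 libraries) and from wild-type mice (WT, 4 libraries). Argonaute 2, the product of Ago2, is the protein that carries a miRNA to its target mRNAs. The substitution was introduced by CRISPR/Cas9 editing of C57BL/6JUke embryos, and the repair template also carried a silent change. The line was kept on C57/Bl6, with 1 wild-type parent in each cross. The labels state neither the age nor the sex of the mice, nor whether each library is 1 animal, so p-values measure the spread between these libraries. The comparison addressed here is whether ribosomal protein mRNAs differ in abundance between L192P and WT cortex.

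A ribosome consists of a small subunit, which reads the mRNA, and a large subunit, which joins the amino acids. Each ribosome holds about the same number of copies of nearly every core protein, so the mRNAs of these genes are abundant in all cells, neurons included, and tend to vary together. Many of them start with a run of pyrimidines, the terminal oligopyrimidine (TOP) motif, through which the kinase complex mTORC1 controls their translation.

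Starts with a pyrimidine run were searched in the annotation (GENCODE M39, GRCm39) as a C at the first transcribed base followed by at least 4 further C or T bases. At least 1 annotated protein-coding transcript of 28 of the 83 genes (33.7%) began this way, against 10.3% of the 14979 other protein-coding genes tested. Runs of at least 8 bases were found in 21 ribosomal protein genes (25.3%) and in 3.04% of the others. A gene without a match has no annotated start that meets this definition. It may still begin with a shorter run, or with such a run at a start other than the annotated ones. The 8 windows that follow each hold 15 bases before and 15 bases from the annotated start. They are shown because the genes carry the values described further on, and the capitals mark the pyrimidine run that begins at the transcript start. They come from the large subunit gene Rpl10 (chrX:73314448-73314477, plus strand), the large subunit gene Rpl21 (chr5:146769940-146769969, plus strand) and the stalk genes Rplp1 (chr9:61821807-61821836, minus strand) and Rplp2 (chr7:141027548-141027577, plus strand). The others come from Rps21 (chr2:179899194-179899223, plus strand), Rps10 (chr17:27854204-27854233, minus strand), Rpl13a (chr7:44778147-44778176, minus strand) and the paralog Rps27l (chr9:66853325-66853354, plus strand).
Rpl10: caggcgtgggagcgtCTCTTTTCCTCTggc
Rpl21: agccccgccctcctcCTTTCggccgccgca
Rplp1: gcaggcgtatatgatCTTTTCCTCagctgc
Rplp2: ctgcgtcagcgtcttCCTTTCgccgccgga
Rps21: aggcacgagctacttCCTTTCTgcgctctc
Rps10: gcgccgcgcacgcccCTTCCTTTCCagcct
Rpl13a: gcgacaagacctcctCCTTTCCCaggcggc
Rps27l: gagcggtcgcccccgCCTCCactcctctcc

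The run at the Rpl10 start was 12 bases long and that of Rplp1 was 9, whereas those of Rpl21 and Rps27l were 5. Of the windows shown, that of Rps27l is the one whose run holds a single T. The genes also shared a second feature of position, which is that 30 of the 83 (36.1%) held an annotated small nucleolar RNA within their bounds on the same strand, 59 in all, against 1.42% of the other protein-coding genes. Rpl4, a large subunit gene, held the most, with 5. Small nucleolar RNAs guide the modification of ribosomal RNA and are commonly cut from introns of such host genes. The coding sequences, taken from the transcript annotated as canonical, were short, with a median of 468 bases and a range of 138 to 1257. The other genes had a median of 1410 bases. Other transcripts of a gene can have another coding length. The 83 genes lay on 19 chromosomes.

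The 8 libraries held between 20396357 and 43575900 counts, and WT replicate 2 was the deepest. The ribosomal protein genes took between 1.25% and 1.44% of the counts of a library. Ago2 itself was at 2291 ± 75.1 normalized counts in L192P against 2246 ± 130 in WT (mean ± SD, n = 4 each), which does not check the genotype, since the knock-in changes the sequence and not the dose of the gene. Replicate 1 of either genotype stood apart in sex-linked expression, with Xist at 0.934 and 1.82 normalized counts against 5185 to 7257 in the other 6 libraries. Genes of chromosome Y had 3547 raw counts in L192P replicate 1 and 3534 in WT replicate 1, against 186 to 573 in the other 6. Markers of neurons were abundant throughout (summed level 218256 to 250566 normalized counts over 8 genes). Of 7 hypothalamic markers, 3 (Avp, Oxt and Hap1) passed the test between genotypes. Their list had a summed level of 5680 to 6715 in L192P and 2815 to 4314 in WT. The mean log2 deviation of this list from the genes' own means was uneven in L192P, at 1.31, -0.575, 2.52 and 0.298 in replicates 1 to 4. In WT it ran from -1.14 to -0.619, so L192P replicate 2 lay close to the WT libraries. Gad2, 1 of 8 neuronal markers, also passed.

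Per kilobase of exon of the canonical transcript, the highest mean levels over the 8 libraries were those of Rplp1 (14226 normalized counts per kilobase), of the small subunit gene Rps14 (12979) and of the small subunit gene Rps15 (9917). Rpl3, a large subunit gene, followed closely with 9828. Over all annotated exons in place of the canonical ones Rplp1 still ranked first, but Rps15 ranked 9th and Rps14 ranked 11th. The lowest were the paralogs Rpl10l, which had no count in any library, Rpl39l (1.77) and Rpl3l (8.26). Rpl10l is known from testis and Rpl3l from muscle. The next lowest were core genes, Rpl24 of the large subunit with 23.5 and Rps10 of the small subunit with 60.9. In both, annotated genes on the same strand covered most of the exons (71.5% in Rpl24, 53.6% in Rps10), as in Rpl13a (59.3%), whose mean was 527 normalized counts. The overlapping protein-coding or noncoding rows, Gm28037 at Rpl24, Gm49804 at Rps10 and Gm45713 at Rpl13a, had 0 counts in all 8 libraries. Whether reads shared by overlapping genes were left out of the counts was not tested, so these 3 levels are uncertain. How reads that also map elsewhere, for example to pseudogenes, were handled is not stated. That may limit the levels and the ranking of all the ribosomal protein genes. Exons of 27 of the 83 genes overlapped genes on the opposite strand by more than 10% of their length, and whether the counting used strand is not stated.

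None of the 81 ribosomal protein genes that entered the test differed between L192P and WT at an adjusted p under 0.05 (DESeq2 Wald test, Benjamini-Hochberg adjustment over 18627 genes). Over all genes tested 1.36% were called, 0.789% as higher and 0.569% as lower in L192P. The smallest adjusted p of a ribosomal protein gene was 0.327. At an unadjusted p under 0.05 there was 1 gene, Rpl10, against 9.44% of all genes. By edgeR's quasi-likelihood test (0.314% of all genes called) and by limma-voom (0.266%) there were also 0 calls and 1 gene at an unadjusted p under 0.05. The log2 fold changes, L192P minus WT, had a median of 0.02 and ran from -0.42 to 0.14, while the median of all genes tested was 0.00. They were above 0 for 58 of the 81 (71.6%), against 50.6% of all genes. By subunit they were above 0 for 29 of the 31 small subunit genes (median 0.04), 28 of the 46 large subunit genes (median 0.02) and 1 of the 4 paralogs tested (median -0.06). These genes varied together between libraries, as described further on, so their signs are not independent observations. In bulk tissue, fewer cells of a type and less RNA per cell cannot be told apart.

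**Figure D1:**
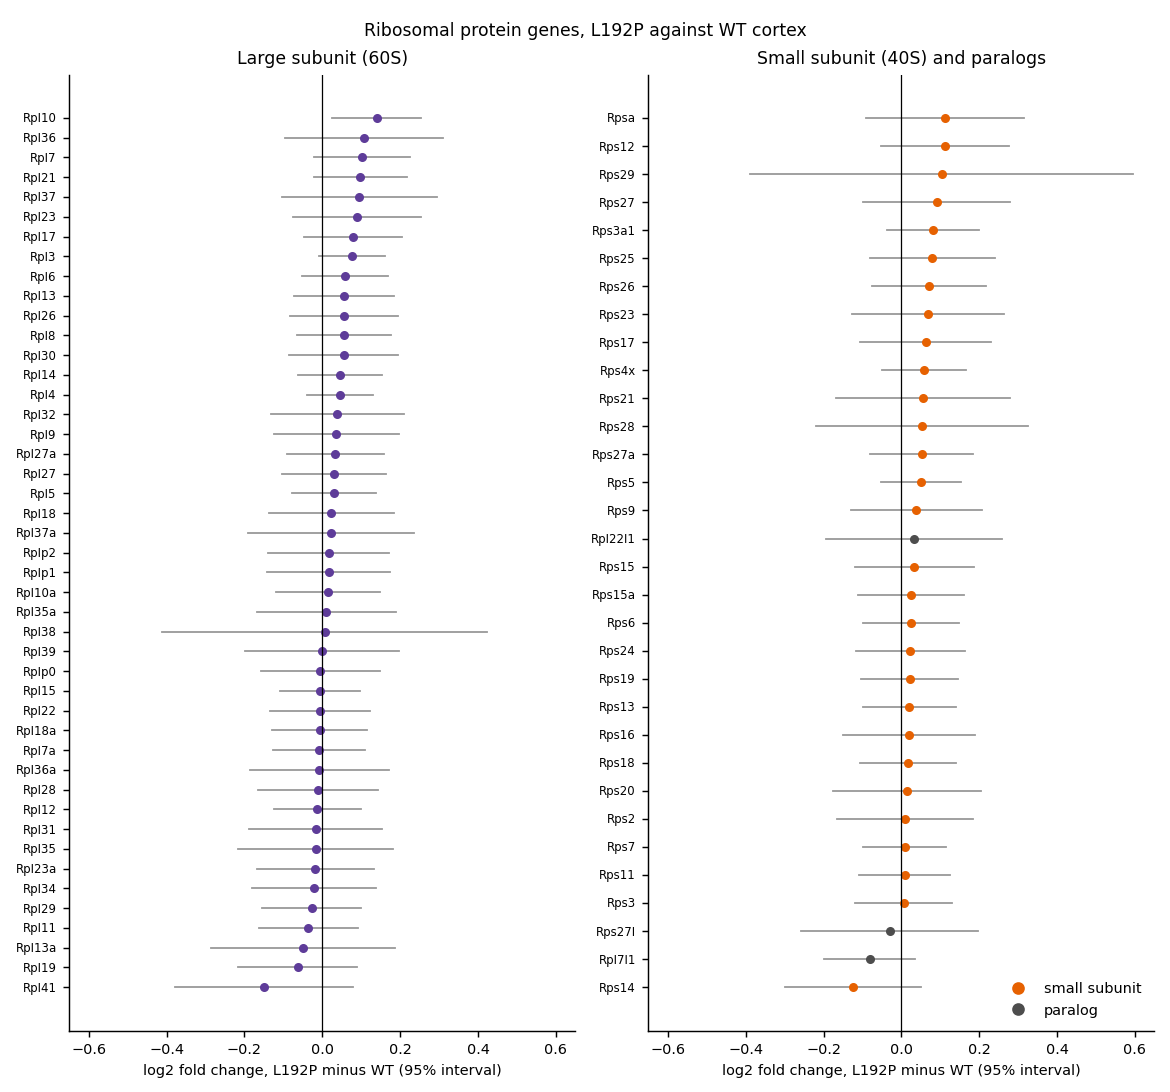
Log2 fold change of the ribosomal protein genes averaging 100 or more normalized counts (1 of them is not drawn), L192P minus WT (x axis), with its 95% interval as a line, for the large subunit on the left and for the small subunit and paralogs on the right. The points lie near 0, the lines of Rps29 and Rpl38 are the longest, and Rpl10 is the gene whose line stays above 0.

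Under the reported fit most of these differences had narrow intervals. That fit assumes the same spread in both genotypes for a gene and ignores the replicate numbers. The L192P libraries were more spread, as described further on, so the intervals of some genes may be too narrow. Of the 78 genes averaging 100 or more normalized counts, 61 had a 95% interval within 0.25 on the log2 scale on either side of 0, that is within 1.19-fold. Their standard errors ran from 0.04 to 0.25 and had a median of 0.08. The lowest bound of any of the 78 was -0.41 for Rpl38 and the highest was 0.60 for Rps29. For the 17 genes outside the band, the interval includes changes of more than 1.19-fold. These included Rpl41, Rps21, Rps28 and Rpsa.

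Rpl10 (ENSMUSG00000008682, chrX:73314418-73316741) encodes a late-joining protein of the large subunit near its catalytic centre. Its normalized counts in L192P replicates 1 to 4 were 4132, 4577, 4663 and 4530, and in WT replicates 1 to 4 they were 4227, 4073, 3962 and 3985. L192P replicates 2 to 4 lay above all WT libraries, and L192P replicate 1 lay within the WT range, so the groups overlapped. The log2 fold change was 0.14 (SE 0.06, 95% interval 0.03 to 0.25, adjusted p = 0.327, higher in 3 of 4 L192P libraries than in any WT library). The exact permutation test over the 70 ways to divide the libraries gave p = 0.0571 (two-sided), where the smallest possible p is 0.0286.

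Rpl3 (ENSMUSG00000060036, chr15:79961825-79976069), which encodes another protein of the catalytic centre of the large subunit, was the member whose groups did not overlap. It was at 13702, 13638, 13606 and 13726 normalized counts in L192P and at 13391, 13067, 12843 and 12558 in WT. All L192P libraries were above all WT libraries by a narrow margin, and they spanned a smaller range. Over all genes tested, 3.01% had L192P above WT without overlap and 2.96% had it below, against 1 and 0 of the 81. The log2 fold change of Rpl3 was 0.08 (SE 0.04, adjusted p = 0.618, exact permutation p = 0.0286, the smallest possible).

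The next genes with the smallest unadjusted p among the positive values were Rpl7, Rpl21 and Rps3a1. Rpl7, of the large subunit, was at 5866 ± 351 normalized counts in L192P against 5462 ± 253 in WT (SD, n = 4 each), with an adjusted p of 0.667. Rpl21, also of the large subunit, was at 6779 ± 461 and 6334 ± 116 (adjusted p = 0.679). Rps3a1 of the small subunit was at 7045 ± 416 and 6660 ± 243 (adjusted p = 0.772). In each of the 3 genes the ranges of both genotypes overlapped, since L192P replicate 1 lay within the WT range (Rpl7, Rps3a1) or below it (Rpl21). L192P replicate 2 of Rps3a1 lay within it as well.

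**Figure D2:**
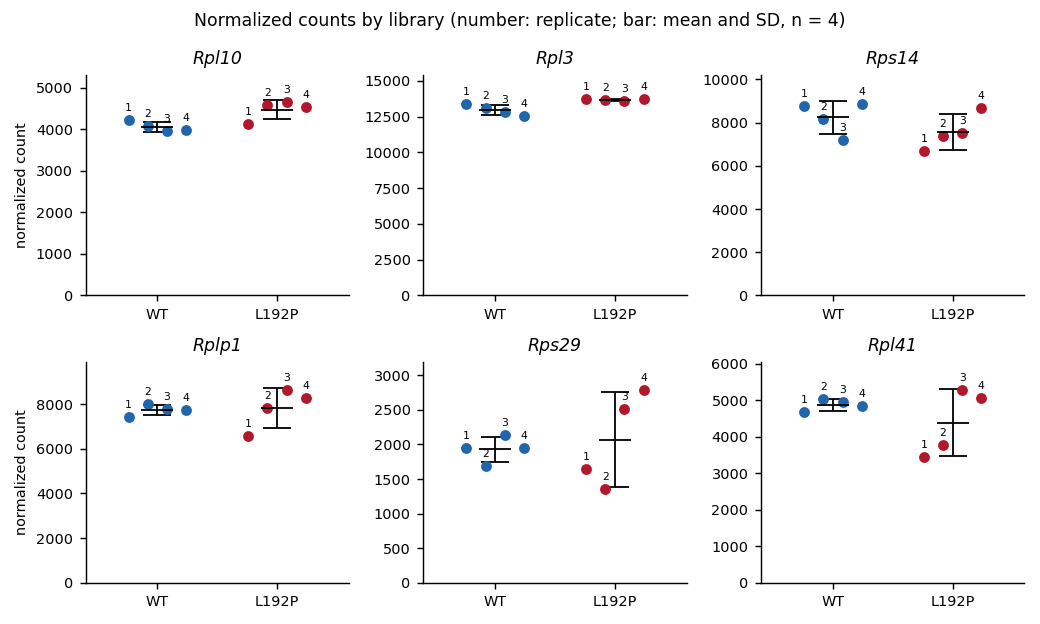
Normalized counts (y axis, from 0) of 6 genes in each library, WT on the left and L192P on the right, with the replicate number over each point and the mean and SD as bars (n = 4). L192P replicates 2 to 4 of Rpl10 sit above the WT libraries and all L192P libraries of Rpl3 do, while Rps29 and Rpl41 are spread widely in L192P.

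Among the negative values the smallest unadjusted p belonged to Rps14, Rpl7l1, Rpl41, Rpl19 and Rpl3l. Rps14 of the small subunit was at 6677, 7359, 7530 and 8683 normalized counts in L192P and at 8757, 8168, 7196 and 8862 in WT. L192P replicate 1 lay below every WT library, and the groups overlapped through WT replicate 3, the lowest of the WT libraries, and L192P replicate 4, the highest of the L192P libraries (log2 fold change -0.12, SE 0.09, adjusted p = 0.760). Rpl41 had the shortest coding sequence among these genes in the canonical annotation, with 138 bases. It was at 3438, 3780, 5291 and 5063 in L192P and at 4669, 5039, 4965 and 4833 in WT. L192P replicates 1 and 2 were below every WT library and L192P replicates 3 and 4 were above every WT library, so the log2 fold change of -0.15 (SE 0.12, adjusted p = 0.792) is a mean over both kinds. Rpl19, a large subunit gene, was at 4496 ± 422 and 4694 ± 302 (adjusted p = 0.919).

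The stalk of the large subunit, which binds elongation factors, is built from Rplp0, Rplp1 and Rplp2. Rplp1 was at 6570, 7816, 8639 and 8276 normalized counts in L192P and at 7442, 7998, 7768 and 7743 in WT. Rplp2 was at 2468, 2632, 2975 and 3174 in L192P and at 2776, 2808, 2767 and 2766 in WT. In both genes L192P replicate 1 was the lowest of all 8 libraries and L192P replicates 3 and 4 were the highest. Their log2 fold changes were both 0.02 (SE 0.08), with an adjusted p of 0.991. Rplp0 was at 4806 ± 431 and 4820 ± 313 (adjusted p = 0.998). Rpl5 and Rpl11, which bind the small ribosomal RNA of the large subunit and, when free, inhibit Mdm2, were also close between genotypes. Rpl5 was at 5536 ± 269 and 5421 ± 133 (adjusted p = 0.956), and Rpl11 at 4609 ± 339 and 4726 ± 129 (adjusted p = 0.954).

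Of the 6 paralogs, Rpl7l1 was the most abundant, at 1384, 1359, 1453 and 1364 normalized counts in L192P and at 1452, 1519, 1448 and 1459 in WT. L192P replicate 3 lay within the WT range and the other L192P libraries below it (log2 fold change -0.08, SE 0.06, adjusted p = 0.772). Rpl7l1 acts in the assembly of the large subunit. Rpl22l1, the paralog of Rpl22, was at 970 ± 114 and 948 ± 147 (adjusted p = 0.985), and Rps27l, a gene induced by p53, at 299 ± 34.2 and 305 ± 20.3 (adjusted p = 0.986). Rpl3l was at 14.9, 4.55, 4.61 and 15.6 in L192P and at 15.5, 9.04, 9.78 and 19.9 in WT. Its log2 fold change of -0.42 has a standard error of 0.55 and rests on few counts. Rpl39l, at 0 to 4.68 normalized counts, and Rpl10l did not enter the test. The core genes Rpl24 and Rps10 were also low, and with Rpl3l they had the largest SD of log2 normalized counts over the 8 libraries among the genes tested. Rpl24 ran from 9.78 to 25.2 normalized counts (log2 fold change 0.14, SE 0.42) and Rps10 from 30.4 to 75.1 (log2 fold change -0.08, SE 0.29).

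Although the means were close, the L192P libraries were more spread than the WT libraries. The SD of log2 normalized counts (with a pseudocount of 1) was larger in L192P for 73 of the 81 genes (90.1%), against 53.5% of all genes tested and 50.9% of the 4124 genes of like abundance (mean normalized count of at least 1430). The median SD was 0.136 in L192P and 0.0536 in WT, while the genes of like abundance had 0.0827 and 0.0826. No test was made of this difference, since the genes share the same 8 libraries and do not vary independently. Without L192P replicate 1 the count was 56 of 81 (69.1%) against 45.4% of all genes, and with replicates 2 to 4 of both genotypes it was 61 (75.3%) against 54.2%, with medians of 0.0986 and 0.0452. With total-count scaling it was 65 (80.2%). The exceptions, with the larger SD in WT, were Rpl3, Rpl6, Rpl15, Rpl22l1, Rps2, Rps7, Rps10 and Rps15a.

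**Figure D3:**
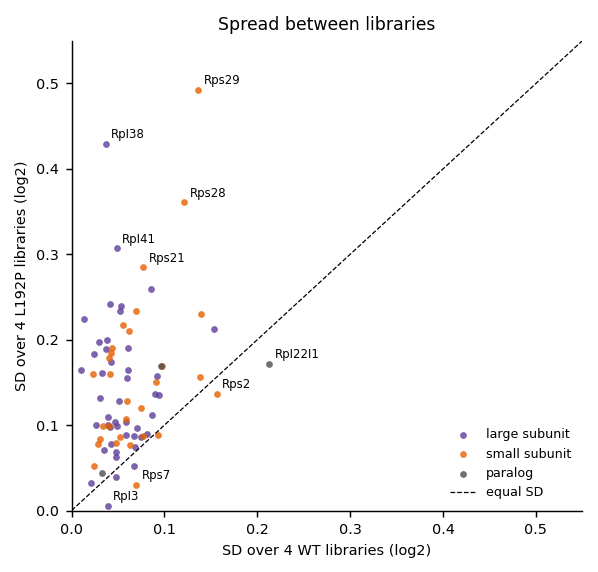
SD of log2 normalized counts over the 4 WT libraries (x axis) against that over the 4 L192P libraries (y axis), 1 point per gene averaging 100 or more normalized counts. Most points lie above the dashed line of equal SD, with Rps29 and Rpl38 the highest.

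The widest abundant genes, named here after their values were seen, were Rps29, Rpl38, Rps28, Rpl41 and Rps21. Rps29, which encodes a zinc-binding protein of the small subunit, was at 1646, 1353, 2507 and 2781 normalized counts in L192P and at 1942, 1694, 2130 and 1946 in WT. Rpl38, a large subunit gene known for its role in the translation of Hox mRNAs, was at 1226, 1099, 1803 and 2041 in L192P and at 1502, 1501, 1570 and 1570 in WT. Rps28 of the small subunit was at 1170, 997, 1573 and 1701 in L192P and at 1283, 1171, 1413 and 1378 in WT. In these 3 genes L192P replicates 3 and 4 were the highest of the 8 libraries and L192P replicates 1 and 2 were among the 3 lowest. The SD of Rpl38 was 0.429 in L192P and 0.037 in WT. Rps21, the small subunit gene whose start is shown above, was at 2548, 2408, 3175 and 3686 in L192P against 2649 to 3009 in WT.

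The genes moved together by library. The mean deviation of the 78 abundant genes from their own mean over the 8 libraries, on the log2 scale, was -0.134, -0.0471, 0.106 and 0.119 in L192P replicates 1 to 4. In the WT libraries it was -0.0233 at the lowest and just under 0 at the highest. L192P replicate 1 was below the gene's own mean for 72 of the 78, L192P replicate 2 for 49, L192P replicate 3 for 7 and L192P replicate 4 for 8, against 42 to 52 in the WT libraries. L192P replicate 1 was the lowest library for 49 genes, and L192P replicate 4 or 3 was the highest for 36 and 29. The means of both genotypes differed by 0.022, against a pooled SD of 0.087. In both subunits L192P replicate 1 was the lowest, replicate 2 the next, and replicates 3 and 4 the highest, with values of -0.143, -0.0303, 0.105 and 0.101 for the large subunit and -0.128, -0.0702, 0.121 and 0.148 for the small subunit in L192P. Over the 8 libraries the subunit means had a Pearson correlation of 0.96, given as a description, since they share libraries and size factors.

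**Figure D4:**
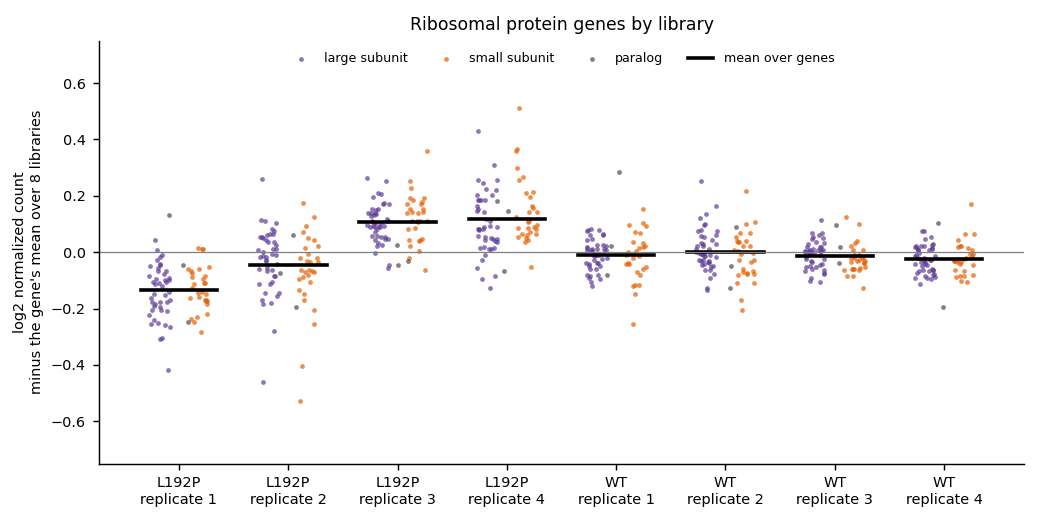
Log2 normalized count of each ribosomal protein gene minus its mean over the 8 libraries (y axis), by library (x axis), with 1 point per gene, coloured by subunit, and the mean as a bar. The bar is lowest in L192P replicate 1, at -0.134, highest in L192P replicate 4, at 0.119, and near 0 in all WT libraries.

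Within the L192P libraries the size of the deviation followed the length of the coding sequence, as annotated for the canonical transcript. The 39 genes with a coding sequence below the median of 454.5 bases had mean deviations of -0.166, -0.124, 0.126 and 0.199 in L192P replicates 1 to 4. The 39 longer genes had -0.101, 0.0303, 0.0866 and 0.0391. L192P replicate 2 thus stood low for the short genes and not for the long ones, and replicates 3 and 4 stood higher for the short genes. In the WT libraries neither set departed from 0 by more than 0.0379. Across the 78 genes the deviation correlated with log2 coding length at 0.48, 0.68, -0.33 and -0.67 in L192P replicates 1 to 4 and at between -0.41 and 0.26 in WT. These are correlations across genes of 1 library, and genes are not independent replicates. The 663 other protein-coding genes with an equally short coding sequence had median deviations of -0.0541, -0.0129, -0.0211 and 0.0268 in L192P replicates 1 to 4. In the WT libraries these medians ran from -0.0162 to 0.0594. They are medians, whereas the values of the ribosomal protein genes are means, so the sizes are not directly comparable. The part of coding length in the pattern was not tested. Mitochondrial ribosomal protein genes had mean deviations between -0.0327 and 0.000501 in the L192P libraries.

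**Figure D5:**
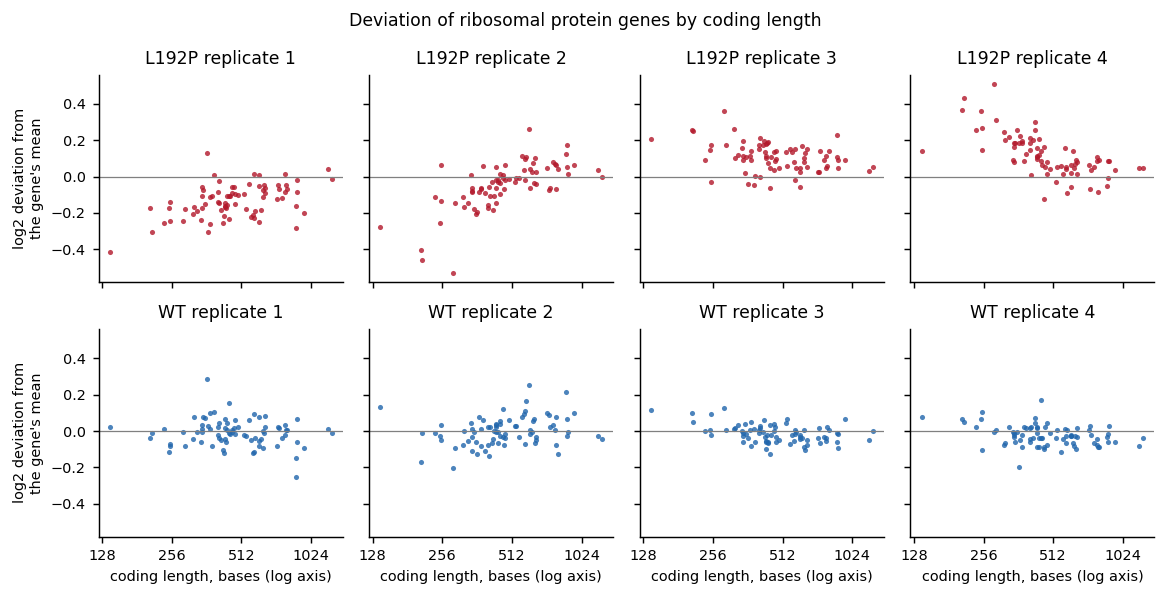
Log2 deviation of each ribosomal protein gene from its mean over the 8 libraries (y axis) against its coding length in bases (x axis, log scale), 1 panel per library, L192P on top and WT below. The points slope upward in L192P replicates 1 and 2 and downward in L192P replicate 4, with the widest departures among the shortest genes.

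Some other measures were low in L192P replicate 1 too, and not all of them followed the ribosomal protein genes in the other libraries. The share of counts from mitochondrially encoded genes was 0.782%, 1.60%, 1.96% and 1.81% in L192P replicates 1 to 4 and 1.05%, 1.68%, 1.32% and 1.88% in WT. The 5 endothelial markers had mean log2 deviations of -1.33, 0.24, 0.76 and 0.73 in L192P and of -0.87, 0.26, -0.28 and 0.50 in WT. Summed over the 5 genes, the lowest and highest L192P libraries had 303 and 1161 normalized counts, against 380 and 981 in WT. The 7 microglial markers had -0.47, 0.35, 0.39 and 0.15 in L192P, and the 5 erythroid markers -0.67, 0.32, 0.44 and 0.33. In WT the microglial values ran from -0.33 to 0.01 and the erythroid ones from -0.46 to 0.20. None of these 17 markers was called, and none was at 0 in every library. The 6 astrocytic markers, none of them called, had -0.42, 0.08, 0.20 and 0.06 in L192P and -0.28, 0.09, 0.17 and 0.10 in WT. The 6 oligodendrocytic markers had -0.33, 0.04, 0.21 and -0.12 in L192P and the 5 choroid plexus markers -0.12, 0.44, 0.55 and -0.47, so that both were below 0 in L192P replicate 4, where the ribosomal protein genes were highest. In WT replicate 1, where the mitochondrial share and the endothelial, microglial and astrocytic markers were also low, the mean deviation of the ribosomal protein genes was -0.00841. The part of these measures in the spread was not tested. Without L192P replicate 1, 71 of the 81 log2 fold changes were above 0, with a median of 0.07, and 8 genes had an unadjusted p under 0.05 (9.88%, against 10.7% of all genes). Without L192P replicate 3 the median was -0.00137 and 40 values were above 0, and without L192P replicate 4 it was -0.00221 and 36 were.

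With replicates 2 to 4 of each genotype, which leaves out both libraries with little Xist, Rpl10 was called, with a log2 fold change of 0.19 and an adjusted p of 0.0232, where 3.46% of all genes were called. It was called in no other alternative that was run. In that fit 70 of 79 values were above 0 (median 0.07), and 11 genes had an unadjusted p under 0.05, all of them higher in L192P (13.9%, against 13.6% of all genes). Beside Rpl10 they included Rpl7, Rpl21 and Rpl23 of the large subunit and Rps12, Rps25 and Rpsa of the small subunit, some of which are named here after their values were seen. With the replicate number as a block, none of 78 was called, where 4.25% of all genes were, and Rpl10 had an adjusted p of 0.157. In that fit 2 genes had an unadjusted p under 0.05 (2.56%, against 14.1% of all genes), both higher in L192P.

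Among genes that make, accompany or control ribosomal proteins, none was called. The log2 fold changes of 18 further TOP mRNAs were above 0 for 15 (median 0.02), and those of 16 genes of mTORC1 and TOP regulation for 8 (median -0.01). They were above 0 for 9 of 30 ribosome assembly factors (median -0.02), 4 of 19 genes of RNA polymerase I (median -0.03) and 25 of 77 mitochondrial ribosomal protein genes (median -0.02), so most values of these 3 lists were below 0, unlike those of the ribosomal protein genes, a difference that was not tested. Npm1, a nucleolar chaperone with a TOP start, was at 4347 ± 280 in L192P and 3867 ± 456 in WT (adjusted p = 0.518), and with the replicate block its adjusted p was 0.0454. Eef1a1, the elongation factor that brings tRNA to the ribosome, was at 55747 ± 1043 and 52884 ± 481, with all L192P libraries above all WT libraries (log2 fold change 0.08, adjusted p = 0.544). Rragd, a GTPase that recruits mTORC1 to lysosomes, was at 4743, 4405, 4153 and 4744 in L192P and at 5058, 5022, 4999 and 5501 in WT. All L192P libraries of Rragd lay below all WT libraries (log2 fold change -0.19, SE 0.06, adjusted p = 0.135), and with the block its adjusted p was 0.00612. For Akt1s1, an inhibitory subunit of mTORC1, the adjusted p was 0.526. In the assembly list the smallest unadjusted p belonged to Nop58 (log2 fold change 0.16, adjusted p = 0.517) and Nop14 (0.16, adjusted p = 0.540), among the polymerase genes to Polr1f (0.25, adjusted p = 0.429) and Ubtf (-0.10, adjusted p = 0.780), and among the mitochondrial genes to Mrpl57 (-0.18, adjusted p = 0.440) and Mrpl37 (-0.14, adjusted p = 0.526). Fau, which encodes a ribosomal protein fused to a ubiquitin-like protein, was at 3016 ± 327 in L192P and 2949 ± 73.7 in WT.

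Among 11979 other genes screened, the 3 whose log2 levels over the 8 libraries were most like the mean deviation of the ribosomal protein genes were Uqcc2 (Pearson correlation 0.965), Eif3k (0.961) and Cnpy2 (0.960). Uqcc2, which encodes an assembly factor of respiratory complex III, was at 1428, 1515, 1802 and 1882 normalized counts in L192P and at 1629 to 1671 in WT. Eif3k, a subunit of the initiation factor that binds the small ribosomal subunit, was at 1799, 1878, 2002 and 1956 in L192P and at 1891 to 1914 in WT. The members with an annotated start that met the definition of a pyrimidine run had a median log2 fold change of 0.01 (28 genes). The other members tested had one of 0.03 (53 genes). Since the split rests on annotated starts, it does not show which of these mRNAs lack the motif.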

How the data were processed

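Counts were deposited by the authors per library and gene with no pooling of replicates. Per the labels, reads of a stranded mRNA kit were aligned to GRCm39 with STAR 2.7.9a, counted with featureCounts 1.5.1 and analysed with DESeq2 1.40.2. The strand setting, the handling of reads that map to several genes and the Ensembl release are not given in the sources used here. A table of normalized values was not used here. Pseudogene rows named after ribosomal protein genes held 0.731% to 1.04% as many counts as the genes themselves. These are counted reads, so they do not show how many reads were left out for mapping to several places.

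The deposited counts were fitted with DESeq2 1.42.0 in R 4.3.3 on all 8 libraries with genotype alone in the model, size factors by the median of ratios, unshrunken fold changes and independent filtering at 0.05. Calls were made at an adjusted p under 0.05 (Benjamini-Hochberg over all genes tested). A normalized count is the count over the size factor of its library. Intervals are the log2 fold change plus and minus 1.96 standard errors. Depth limits the genes with few counts, and the standard errors include counting error. The members, the gene lists and the tests were chosen with earlier results of these data known. Genes were named by a rule, namely called members, the 5 smallest p in each direction, the stalk, Rpl5, Rpl11, the paralogs, the 3 highest and lowest per kilobase, the 3 largest SDs, and of each related list the 2 smallest p.

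Alternatives were edgeR 4.0.16 (quasi-likelihood), limma 3.58.1 (voom), TMM and total-count size factors, size factors without ribosomal protein and mitochondrial genes, independent filtering off, a minimum of 10 counts in 4 libraries, a replicate block, replicates 2 to 4 only, and leaving out each library. The alternatives for the comparison of SDs were added after seeing the data. No 2 libraries of a genotype agreed within sampling noise (chi-square per degree of freedom 5.52 to 22.6). The meaning of the replicate numbers is not given in the labels. Over 13422 genes, deviations from the mean of a genotype correlated at 0.23 to 0.63 between same-numbered libraries. Between the 12 other pairs they correlated at -0.38 to 0.14, so the numbers appear to pair the libraries. The value of 0.63 was that of the replicate 1 libraries, which also share low Xist. The same-numbered pairs of replicates 2 to 4 were at 0.23 to 0.38. Over 78 ribosomal protein genes the same-numbered pairs were at 0.38 to 0.68 and the other pairs at -0.52 to 0.39. The reported fit, its intervals and the permutation tests have no block, so they ignore any such pairing. The fit with the block is given beside each call it changes. Tested on simulated counts for the L192P and WT comparison (55416 genes, 200 changed), DESeq2 recovered 95% of genes changed by 1 log2 unit and 70% of those changed by 0.5, with 13.2% false among 190 calls. Gene positions, 98.8% of identifiers matched, came from GENCODE M39, and window sequences from the GRCm39 genome.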

Additional observations from a re-analysis of the deposited data

Results flagged for a closer look

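Dixon's test was applied to the normalized counts of the named ribosomal protein genes within each genotype, 50 groups of 4 libraries in all, of which chance flags about 2.5. It singled out 2. Rpl7l1 was at 1519 normalized counts in WT replicate 2 and at 1448 to 1459 in the other WT libraries, so that the gap took up 0.850 of the range, past the critical value. Rpl39l was at 4.68 normalized counts in WT replicate 4 and at 0 in the other WT libraries, which rests on few counts. Neither gene was called, and the cause of either value was not tested.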

How the results depend on the processing

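No ribosomal protein gene was called under 16 of the 17 alternatives, and 1 (Rpl10) was called with replicates 2 to 4 only. The median log2 fold change of the 81 genes ranged from -0.00221 to 0.0722 when single libraries were left out, that of the large subunit from -0.0132 to 0.0719 and that of the small subunit from 0.00150 to 0.0899, and the count with the larger SD in L192P from 56 to 77. Over all genes, 53 were called by edgeR, 45 by limma-voom, 533 with the replicate block and 500 with replicates 2 to 4 only, against 253, and from 112 (without WT replicate 4) to 496 (without WT replicate 1) when single libraries were left out. The other TOP mRNAs gained 1 call (Npm1) with the replicate block, 1 with replicates 2 to 4 only and 0 to 1 without single libraries (Npm1 without WT replicate 1), and the mTORC1 genes gained 1 (Rragd) with the block and 1 with replicates 2 to 4 only. The pairing by replicate block changed no other call among the ribosomal protein genes and these lists. The sign of Rplp0 turned to 0.0246 with replicates 2 to 4 only and to 0.0191 with total-count size factors, and that of Rps27l to 0.0115 with replicates 2 to 4 only. Without single libraries the sign also turned for Rplp0 (range -0.0365 to 0.0563), Rplp1 (-0.0337 to 0.0897), Rplp2 (-0.0465 to 0.0729), Rpl11 (-0.0602 to 0.0127), Rpl22l1 (-0.0238 to 0.145), Rps27l (-0.0857 to 0.0433), Rps15 (-0.0226 to 0.0905), Rps10 (-0.279 to 0.113) and Rpl24 (-0.118 to 0.272), none of them called. The causes were not tested. Few counts limit Rpl3l, Rpl24, Rpl39l and Rps10, and the levels of Rpl24 and Rps10 are also uncertain because of the overlapping genes described above.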
